A study of Mus musculus with 20 samples.

Results

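The genes described here encode 10 enzymes that remove superoxide or peroxides: the superoxide dismutases Sod1, Sod2 and Sod3, catalase (Cat), the glutathione peroxidases Gpx1, Gpx3 and Gpx4, and the peroxiredoxins Prdx1, Prdx5 and Prdx6. They were taken by symbol from a deposited table of 51789 genes. All 10 are in the table, and all 10 reached 1 FPKM (fragments mapped to a gene, scaled to its length and to the size of the library) in at least 5 of the 20 libraries, as did 16383 genes in all. Levels are given as scaled FPKM, the deposited value divided by a factor for each library that evens out the level of most genes.

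Superoxide arises in mitochondria, in NADPH oxidases and in other oxidases, and superoxide dismutases turn it into hydrogen peroxide. Catalase splits hydrogen peroxide into water and oxygen, mostly in peroxisomes. Glutathione peroxidases reduce peroxides with glutathione, and several of them carry selenocysteine in the active site. Peroxiredoxins use a reactive cysteine that is mostly restored by thioredoxin. The nucleus pulposus is the soft centre of a spinal disc and has no vessels of its own, and the annulus fibrosus is the lamellar collagen ring around it. Oxidative damage has long been studied in disc ageing.

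RNA was sequenced from nucleus pulposus (NP) and annulus fibrosus (AF) of BL6 mice aged 24 months. The mice had been split at random at 18 months of age and were given intraperitoneal injections, counted per week in the protocol, for 6 months, either of DMSO (vehicle) or of MDL-800 in the same amount of DMSO, so that every group received DMSO. MDL-800 is a small molecule used as an activator of SIRT6, a chromatin deacylase, and the series title names that activation as its purpose. Each tissue was thus measured under each of the 2 treatments, in 4 groups of 5 libraries (called NP vehicle, AF vehicle, NP MDL-800, AF MDL-800). Libraries carry the number of their title or library name. Sex, genetic changes and doses of the mice are not given in the sources used here, nor is it stated which libraries come from the same mouse or whether tissue was pooled. The labels call the samples primary cells, while the extraction protocol describes dissected tissue. There was no untreated group and no young group. P-values measure the spread between these libraries.

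The deposited table has no read counts. Depth estimated from the steps of low values lay between 12.9 and 22.0 megafragments (M) per library, and the means by group were between 18.4 and 19.8 M. The tissue labels were set against markers. Of 9 NP markers in the table, 8 had a higher mean in NP than in AF of vehicle-treated mice, among them T (Brachyury), Krt19, Krt8 and Car3, while Car12 and Noto were near 0 in NP. Of 8 AF markers, 7 had a lower mean in NP, and Fmod was the exception. All 63 markers of 9 other cell types (red blood cells, neutrophils, macrophages, B and plasma cells, skeletal muscle, bone, fat, nerve and endothelium) had a lower mean in NP than in AF under both treatments. The median ratio of AF to NP over these 63 was 14.1 in vehicle-treated and 23.6 in MDL-800-treated mice, and none was at 0 in all NP libraries of a group. In bulk tissue, fewer cells of a type and less RNA per cell cannot be told apart. Libraries 1 and 2 of NP vehicle, library 12 of AF vehicle and library 27 of AF MDL-800 had the lowest GC slopes, the change of log2 level of a gene against the average library per 10 percentage points of GC content. The slopes were -0.28 and -0.29 in the NP pair, -0.24 in AF vehicle library 12 and -0.11 in AF MDL-800 library 27, and between -0.05 and 0.14 in the other 16 libraries. In NP every MDL-800 library (0.023 to 0.088) had a higher slope than every vehicle library (-0.285 to -0.007). GC slope and treatment therefore cannot be told apart in NP.

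The promoters of 4 enzymes are shown, either because the transcripts are a pair that ran together across AF libraries by Pearson's r (Gpx1 and Prdx5, below; the other such pair is Sod3 and Gpx3, of which Sod3 was not matched) or because they hold the core of the antioxidant response element (Sod1 and Prdx1), to which the factor NRF2 binds. Each is the 250 bases before the start of a RefSeq transcript, 5′ to 3′ on the strand of the gene, on GRCm38.p6. They lie at chr16:90220512-90220761 (plus strand, Sod1), chr4:116685349-116685598 (plus strand, Prdx1), chr9:108338830-108339079 (plus strand, Gpx1) and chr19:6910107-6910356 (minus strand, Prdx5). Capitals mark the element core TGACNNNGC and the GC box GGGCGG, each on either strand.
Sod1: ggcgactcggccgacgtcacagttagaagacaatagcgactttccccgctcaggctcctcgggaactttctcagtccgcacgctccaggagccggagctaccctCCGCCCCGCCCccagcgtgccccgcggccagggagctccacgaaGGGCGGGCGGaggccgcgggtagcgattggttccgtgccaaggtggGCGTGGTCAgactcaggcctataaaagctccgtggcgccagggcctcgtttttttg
Prdx1: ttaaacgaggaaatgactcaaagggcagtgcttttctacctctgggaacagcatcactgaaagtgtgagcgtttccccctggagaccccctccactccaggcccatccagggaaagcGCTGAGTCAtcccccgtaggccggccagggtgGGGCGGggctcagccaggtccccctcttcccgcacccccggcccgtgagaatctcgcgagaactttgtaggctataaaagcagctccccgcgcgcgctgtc
Gpx1: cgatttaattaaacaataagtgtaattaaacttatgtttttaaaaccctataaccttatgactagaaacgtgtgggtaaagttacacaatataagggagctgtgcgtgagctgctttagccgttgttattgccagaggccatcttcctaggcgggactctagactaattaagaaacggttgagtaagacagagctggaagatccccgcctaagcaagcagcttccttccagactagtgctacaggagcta
Prdx5: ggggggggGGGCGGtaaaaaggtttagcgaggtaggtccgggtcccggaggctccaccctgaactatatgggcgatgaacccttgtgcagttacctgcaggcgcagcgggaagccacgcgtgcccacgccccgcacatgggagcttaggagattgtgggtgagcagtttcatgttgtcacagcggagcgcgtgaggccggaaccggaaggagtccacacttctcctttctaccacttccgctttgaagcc
The search covered 11 RefSeq windows of 300 bases (250 before and 50 after a start) for 8 of the 10 genes, 4 of them for Gpx4. Sod3 and Prdx6 were not matched. The element core was found in 2 of the 11 windows, that of Sod1 at position -56 and that of Prdx1 at position -133, against 12.4% of all 32851 windows. The 2 motifs do not overlap in these windows. The GC box, the site of SP factors, was in 10 of the 11, against 35.7% of all windows, and in Gpx1 it began 8 bases after the start and so outside the printed stretch. These are matches of letters and not measured binding.

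The 10 enzymes spanned a wide range of levels, and their order differed between the tissues. In NP of vehicle-treated mice the mean was highest for Gpx4 (349 ± 37.3 scaled FPKM, SD, n = 5), followed by Sod1, Gpx1, Gpx3, Prdx1, Prdx6, Prdx5, Cat, Sod2 and, far below, Sod3 (1.37 ± 0.767). In that order each neighbour overlapped the next in its range over libraries, except from Prdx6 to Prdx5, from Prdx5 to Cat and from Sod2 to Sod3. In AF of vehicle-treated mice Gpx3 came first (725 ± 192) and Gpx1 next (583 ± 201), before Sod1, Gpx4, Prdx1, Prdx5, Prdx6, Cat, Sod3 and Sod2 (23.1 ± 4.49). There, neighbours failed to overlap from Prdx6 to Cat alone. The order under MDL-800 was the same in each tissue but for 1 exchange of neighbours, Gpx3 with Gpx1 in NP and Prdx5 with Prdx1 in AF.

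**Figure D1:**
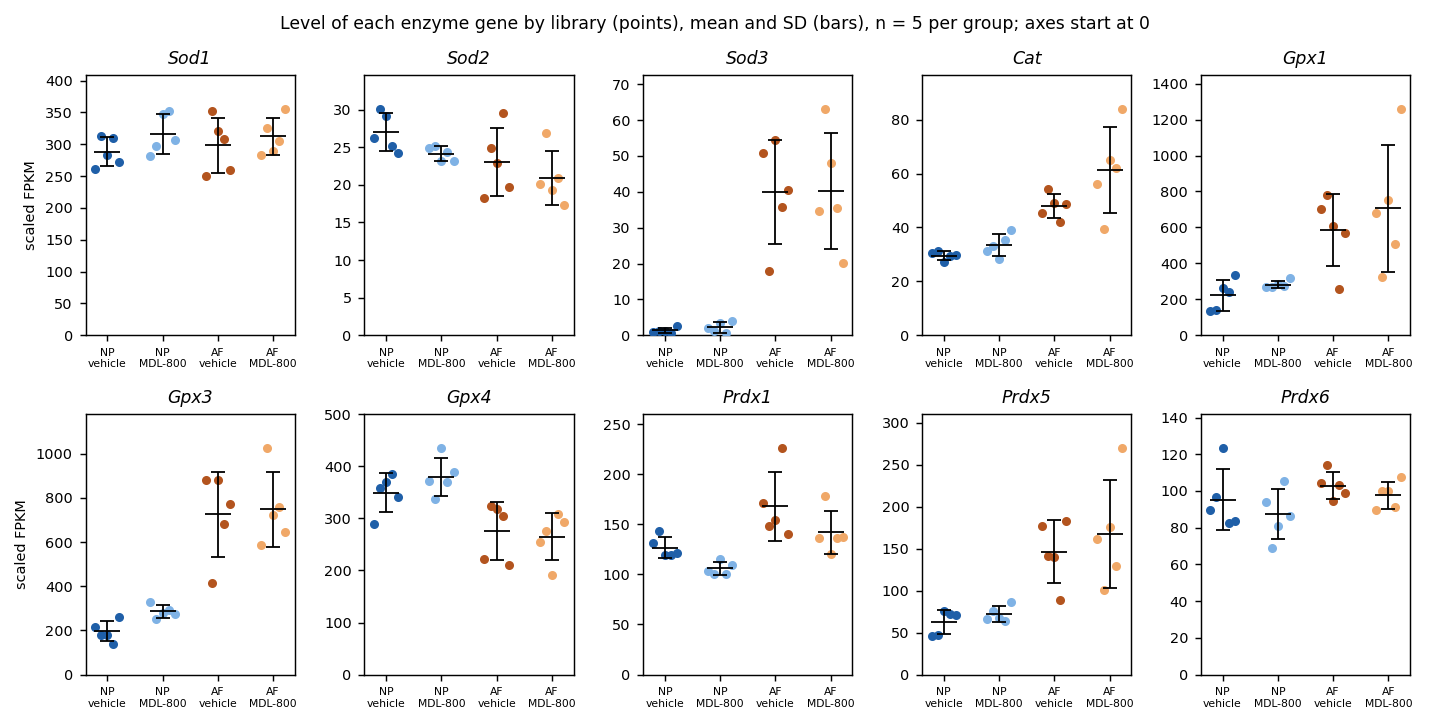
Scaled FPKM (vertical axes, from 0) of the 10 enzyme genes in each of the 20 libraries (points), with the mean and SD of the 5 libraries of a group (bars). Sod3, Cat, Gpx3 and Prdx5 have no NP vehicle library within the range of AF vehicle, whereas Sod1, Sod2 and Prdx6 overlap between all 4 groups.

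Between the tissues of vehicle-treated mice, 6 of the 10 enzymes were lower in NP and none was higher: Sod3, Gpx3, Gpx1, Prdx5, Cat and Prdx1. They are lower by a log2 fold change of between -4.07 (Sod3) and -0.39 (Prdx1), where a fold change is that of scaled FPKM + 1 in limma and a gene is called at an adjusted p under 0.05 after Benjamini-Hochberg adjustment over all genes tested. Of all 16383 genes, 55.7% were called in this comparison, 33.9% as lower and 21.8% as higher in NP, so a share of 6 in 10 is near the background. Groups did not overlap for 4 of the 10, against 41% of all genes. The median fold change was -0.53 over the enzymes and -0.08 over all genes tested.

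In MDL-800-treated mice, 7 of the 10 enzymes were called, against 62.8% of all genes. The 6 enzymes named above were lower again (37.2% of all genes were lower), and Gpx4 was higher in NP (25.6% of all genes were higher). NP and AF libraries were fully apart for these 7, against 49.1% of all genes. The median fold change was -0.62 over the enzymes and -0.08 over all genes tested. The balance of calls over all genes depended on scaling. In vehicle-treated mice 3577 genes were higher and 5550 lower in NP, whereas these were 6309 and 4197 after quantile normalization, 4976 and 4655 after upper-quartile scaling, and 6781 and 3946 after removal of each library's trend with GC content. In MDL-800-treated mice 4188 were higher and 6102 lower, against 6805 and 4544, 5611 and 5043, and 7261 and 4265. These settings moved the median of all genes by 0.27, 0.16 and 0.31 in vehicle-treated mice and by 0.27, 0.16 and 0.32 in MDL-800-treated mice. Under them Sod3, Gpx1, Gpx3 and Prdx5 stayed lower in NP in both comparisons. After GC correction their fold changes were smaller than those given below. In vehicle-treated mice they were -3.67 (Sod3), -0.97 (Gpx1), -1.46 (Gpx3) and -0.79 (Prdx5). In MDL-800-treated mice they were -3.31, -0.91, -1.06 and -0.84.

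**Figure D2:**
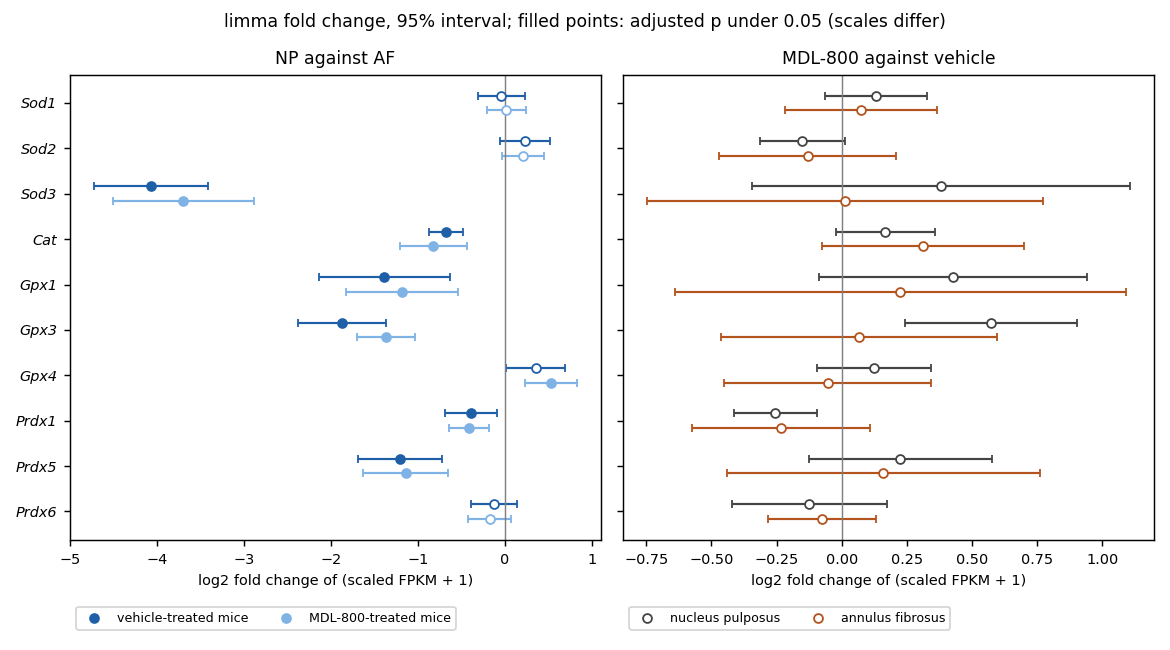
Log2 fold change of scaled FPKM + 1 (horizontal axes, whose ranges differ) with its 95% interval from limma for each enzyme, NP against AF on the left and MDL-800 against vehicle on the right. Filled points passed an adjusted p of 0.05: 6 enzymes in vehicle-treated and 7 in MDL-800-treated mice between tissues, and none between treatments.

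Sod3, the secreted dismutase that binds to the extracellular matrix, showed the widest gap between tissues among the 10 (chromosome 5, 52363791 to 52371418, plus strand, here and below on GRCm38 in GENCODE M21). In NP vehicle the 5 libraries had 0.759, 1.02, 1.06, 1.31 and 2.70 scaled FPKM. In AF vehicle they had 17.9, 35.8, 40.4, 50.8 and 54.5. The lowest AF library therefore lay well above the highest NP library. The ratio of the means was 29.1 in favour of AF, and the log2 fold change was -4.07 (SE 0.30, adjusted p = 5.05e-06 in limma). Under MDL-800 the NP values were 0.614, 1.06, 2.06, 3.53 and 4.09 and the AF values 20.2, 34.7, 35.5, 47.9 and 63.2. Again no library of one tissue reached the other, with a ratio of 17.7 and a log2 fold change of -3.70 (SE 0.37, adjusted p = 1.16e-05). The gaps of the 8 AF markers varied. Dcn, a collagen-binding proteoglycan, had a mean of 44.6 in NP vehicle and 3234 in AF vehicle, and Tnmd, a tenocyte marker, 1.11 and 48.2. The gaps were smaller for the tendon factors Mkx (5.46 and 17.6) and Scx (2.59 and 4.72), and Fmod was higher in NP (1001 and 703). The relation of Sod3 with the AF markers across NP libraries is given below. The part of AF or other cells in the Sod3 signal of NP was not tested.

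The intracellular dismutases Sod1 (chromosome 16, 90220754 to 90226329, plus strand) and Sod2 (chromosome 17, 13006846 to 13040063, plus strand) were not called between tissues. Sod1, the copper and zinc enzyme of the cytosol, ranged from 261.5 to 313 in NP vehicle, from 281 to 352 in NP MDL-800, from 249.8 to 352 in AF vehicle and from 284 to 356 in AF MDL-800. All 4 ranges overlapped. The log2 fold change of NP against AF was -0.04 in vehicle-treated mice (95% interval -0.31 to 0.23) and 0.02 in MDL-800-treated mice (-0.21 to 0.24). Sod2, the manganese enzyme of mitochondria, ranged from 24.2 to 30.1 in NP vehicle, from 23.1 to 25.2 in NP MDL-800, from 18.2 to 29.6 in AF vehicle and from 17.3 to 26.9 in AF MDL-800. Here too the ranges overlapped, and the fold changes were 0.23 (-0.06 to 0.52) and 0.21 (-0.03 to 0.45). Sod2 was called higher in NP under quantile normalization (0.41 in both comparisons), upper-quartile scaling (0.41 and 0.40) and GC correction (0.43 and 0.49), with array weights under MDL-800 (0.22), and also without the AF library of lowest GC slope, at 0.32 without library 12 and 0.30 without library 27. The longest Sod2 transcript is 98.3% identical to one of Rps6ka2 over 3110 nucleotides, and how shared reads were counted is not given.

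Within the dismutases the 2 tissues thus differed in make-up. The share of Sod3 in the summed FPKM of the 3 dismutases was 0.439% ± 0.264 (SD, n = 5) in NP vehicle and 11.3% ± 4.41 in AF vehicle, and 0.666% ± 0.435 and 10.8% ± 3.86 under MDL-800. Sod1 held most of the sum everywhere, 91.0% ± 0.762 in NP vehicle and 82.3% ± 4.09 in AF vehicle. No test was run on shares.

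Catalase (chromosome 2, 103453849 to 103485160, minus strand) was lower in NP. The NP vehicle libraries had 27.0, 29.6, 29.6, 30.4 and 31.2 scaled FPKM and the AF vehicle libraries 42.1, 45.4, 48.8, 49.2 and 54.4, so that the groups were apart and each was narrow. The log2 fold change was -0.68 (SE 0.09, adjusted p = 0.000101 in limma). Under MDL-800 the NP libraries had 28.3, 31.4, 33.3, 35.4 and 39.0 and the AF libraries 39.6, 56.0, 62.0, 65.0 and 84.1. These groups were nearly touching, with AF library 27 the lowest of its group, and the fold change was -0.82 (SE 0.17, adjusted p = 0.00179). After GC correction the fold change was -0.33 in vehicle-treated mice (adjusted p = 0.00885), and -0.41 in MDL-800-treated mice, where it was no longer called (adjusted p = 0.0567).

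Gpx3, the glutathione peroxidase secreted into plasma and extracellular fluid (chromosome 11, 54902453 to 54910377, plus strand), was lower in NP. The NP vehicle libraries had 140.3, 177, 180.3, 217 and 260.1 scaled FPKM, and the AF vehicle libraries 415, 682, 771, 879 and 879. The groups did not overlap, and AF library 9 was the lowest of the AF group. The ratio of the means was 3.72 in favour of AF, with a log2 fold change of -1.87 (SE 0.23, adjusted p = 7.43e-05 in limma). Under MDL-800 the NP libraries had 253, 275, 278, 293 and 329.8 and the AF libraries 588, 644, 721, 759 and 1026. The tissues were again apart, by a ratio of 2.62 and a log2 fold change of -1.36 (SE 0.15, adjusted p = 2.34e-05). With all libraries, the secreted members Sod3 and Gpx3 had the lowest NP against AF fold changes of the 10 in both treatments. Under MDL-800 this order changed without AF library 27, when Gpx3 stood at -1.24, above Gpx1 at -1.43 and Prdx5 at -1.30.

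Gpx1, the cytosolic and mitochondrial glutathione peroxidase that is abundant in red blood cells (chromosome 9, 108338903 to 108340343, plus strand), was also lower in NP but varied more. The NP vehicle libraries had 135, 139, 239, 262 and 334 scaled FPKM, and the AF vehicle libraries 256, 569.7, 607, 704 and 779. Libraries 1 and 2 were the low pair in NP and library 12 the low one in AF, and the groups overlapped through library 12. The log2 fold change was -1.38 (SE 0.34, adjusted p = 0.00528 in limma). It was -0.98 without NP libraries 1 and 2 (adjusted p = 0.045) and -1.66 without AF library 12 (adjusted p = 0.000642). Under MDL-800 the NP libraries had 266, 269, 273, 285 and 316 and the AF libraries 322, 509, 682, 753 and 1261. The NP values lay close together and the AF values far apart, from library 27 to library 30, and the fold change was -1.18 (SE 0.29, adjusted p = 0.00481).

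Gpx4, which reduces lipid peroxides within membranes and guards against ferroptosis (chromosome 10, 80047166 to 80056439, plus strand), had the opposite sign. The NP vehicle libraries had 289, 342, 359, 369.8 and 386 scaled FPKM and the AF vehicle libraries 211, 222, 305, 319 and 324. The groups overlapped by NP library 1 alone, and the log2 fold change of 0.36 (95% interval 0.01 to 0.70) was not called (adjusted p = 0.0718 in limma). In MDL-800-treated mice the NP libraries had 336, 369.65, 371, 389 and 436 and the AF libraries 192, 255, 275, 293 and 309. There every NP library lay above every AF library, and Gpx4 was higher in NP by 0.53 (SE 0.14, adjusted p = 0.00542). In vehicle-treated mice Gpx4 was called under quantile normalization (0.43), upper-quartile scaling (0.54), rescaling to protein-coding genes (0.40), GC correction (0.77), array weights (0.44) and the fit of all 4 groups (0.36), and without NP library 1 (0.42) or AF library 9 (0.42). A processed copy, Gpx4-ps2, is 99.7% identical over 762 nucleotides and was listed at a median of 4.07 scaled FPKM over the 20 libraries, so a small part of the reads could have been assigned to either.

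The glutathione peroxidases therefore differed between tissues in their proportions. Gpx4 made up 46.1% ± 6.30 of the FPKM of the 3 genes in NP vehicle and 17.9% ± 5.15 in AF vehicle, and Gpx3 made up 25.7% ± 5.91 and 45.9% ± 10.7. Under MDL-800 the share of Gpx4 was 40.1% ± 2.05 in NP and 15.6% ± 3.20 in AF. The ranges of the Gpx4 share did not overlap between tissues, at 36.5% to 52.9% in NP vehicle against 12.3% to 24.5% in AF vehicle.

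**Figure D3:**
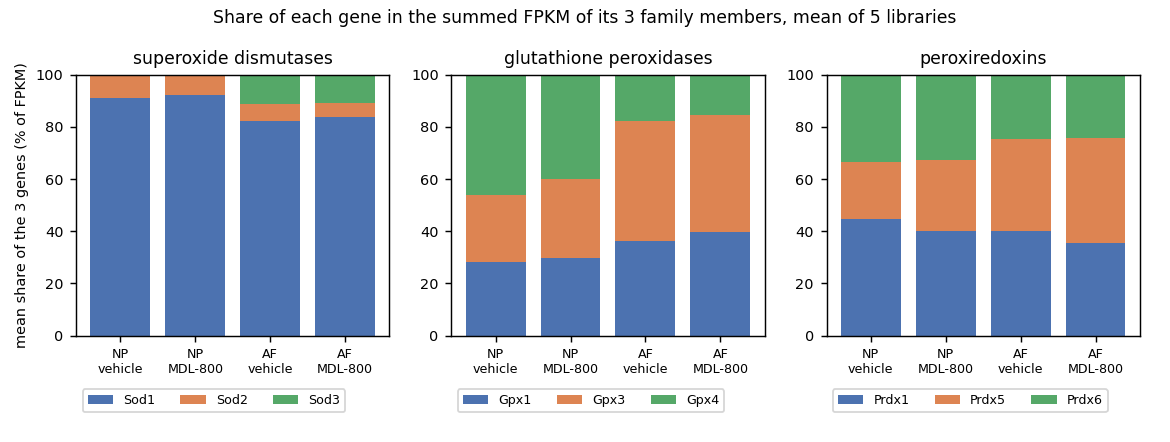
Mean share, in % of summed FPKM, of each gene among the 3 measured members of its family, in 4 groups of 5 libraries (stacked bars). The Sod3 share is visible only in AF (11.3% in vehicle against 0.439% in NP vehicle), and the Gpx4 share is 46.1% in NP vehicle and 17.9% in AF vehicle.

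Prdx5, a peroxiredoxin of mitochondria, peroxisomes and cytosol (chromosome 19, 6906697 to 6910106, minus strand), was lower in NP. The NP vehicle libraries had 46.3, 46.8, 71.0, 72.6 and 75.3 scaled FPKM and the AF vehicle libraries 89.4, 141, 141, 177 and 183. As with Gpx1, libraries 1 and 2 were the low ones in NP and library 12 in AF, but here the groups did not overlap. The log2 fold change was -1.21 (SE 0.22, adjusted p = 0.000816 in limma). It was -0.95 without NP libraries 1 and 2 (adjusted p = 0.00816) and -1.37 without AF library 12 (adjusted p = 0.000189). With MDL-800 the NP libraries had 63.4, 66.7, 67.4, 75.5 and 86.6 and the AF libraries 101, 129.8, 162, 176 and 270.1, with a fold change of -1.14 (SE 0.22, adjusted p = 0.00109). The groups were again separate, with AF libraries 27 and 30 at the ends of their group. Exons of Prdx5 overlap those of Trmt112 on the other strand. Trmt112 had a median of 45.3 scaled FPKM, and whether reads were counted by strand is not given in the sources used here.

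Prdx1, an abundant cytosolic peroxiredoxin (chromosome 4, 116685544 to 116700822, plus strand), was lower in NP by a smaller step. The NP vehicle libraries had 119, 119, 121, 131 and 143 scaled FPKM and the AF vehicle libraries 140.1, 148, 154, 171 and 226. Only NP library 2 reached into the AF range, and the log2 fold change was -0.39 (SE 0.13, adjusted p = 0.0293 in limma). In the MDL-800 groups the NP libraries had 99.8, 101, 104, 109.7 and 115 and the AF libraries 121, 136, 137, 137 and 178, which did not overlap. The fold change there was -0.41 (SE 0.11, adjusted p = 0.00592). The call was lost in both comparisons under upper-quartile scaling (-0.20 and -0.22) and GC correction (-0.18 and -0.12), and in vehicle-treated mice without NP library 3, 5 or 6 or AF library 8 (adjusted p = 0.0607, 0.0636, 0.0603 and 0.058).

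Prdx6, which reduces peroxidised phospholipids and also has phospholipase activity (chromosome 1, 161240112 to 161251219, minus strand), was not called. It ranged from 82.6 to 124 scaled FPKM in NP vehicle, from 69.2 to 106 in NP MDL-800, from 94.5 to 114 in AF vehicle and from 89.4 to 108 in AF MDL-800. These ranges overlapped, and the fold changes of NP against AF were -0.12 (95% interval -0.39 to 0.14) and -0.17 (-0.42 to 0.08). Prdx5 made up 21.9% ± 4.76 of the FPKM of the 3 peroxiredoxins in NP vehicle and 35.0% ± 8.31 in AF vehicle, and Prdx6 33.3% ± 3.55 and 24.7% ± 2.11.

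None of the 10 enzymes passed the test for a change with MDL-800 in either tissue. In NP 0 of 10 were called with limma, against 0.25% of all genes (41 genes). The members' smallest adjusted p was 0.115, for Gpx3. At an unadjusted p under 0.05 there were 2 of 10, Gpx3 and Prdx1, against 14.1% of all genes, and groups did not overlap for 1 of 10, Prdx1, against 4.5% of all genes. In AF 0 of 10 were called, against 0% of all genes. At an unadjusted p under 0.05 there were 0 of 10 there, against 1.65% of all genes, and no member had groups that did not overlap, against 0.226% of all genes.

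Gpx3 had the smallest p of the members in NP. Of the 5 NP MDL-800 libraries given above (253 to 329.8), 4 lay above the highest vehicle library, number 6 at 260.1. The mean was 286 ± 28.4 scaled FPKM (SD, n = 5) with MDL-800 and 195 ± 45.3 with vehicle. The log2 fold change was 0.57 (SE 0.15, 95% interval 0.24 to 0.90, unadjusted p = 0.0029, adjusted p = 0.115 in limma). After GC correction the fold change was 0.42 (adjusted p = 0.343 in limma). Without vehicle libraries 1 and 2 it was 0.61 (adjusted p = 0.294). In NP, GC correction cannot be told apart from taking out a treatment difference. The fold change was 0.69 without NP vehicle library 6, the only setting run in which it passed the test (adjusted p = 0.042). That library also had the highest mean level of neutrophil markers (7.79 on the log2 scale, others in its group 3.59 to 6.59) and of AF markers (4.45, others 3.19 to 4.35) among NP vehicle libraries. It was the highest of its group in red blood cell, macrophage, B and plasma cell, bone and endothelium markers as well. Across NP libraries r of Gpx3 was 0.26 with neutrophil and with AF markers (adjusted permutation p = 0.792 for each). The part of these cells in the Gpx3 value was not tested.

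Prdx1 was the other member with a small p in NP. All 5 MDL-800 libraries (99.8 to 115) lay below all 5 vehicle libraries (119 to 143). The log2 fold change was -0.26 (SE 0.07, 95% interval -0.41 to -0.10, adjusted p = 0.142). Without vehicle libraries 1 and 2, which had the highest Prdx1 values and the lowest GC slopes in NP, it was -0.18 (adjusted p = 0.392), and after GC correction -0.16 (adjusted p = 0.447). As the GC slope parts the treatments in NP, this correction cannot be told apart from taking out a treatment difference.

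Gpx1 and Prdx5 carried the mark of the same pair of NP libraries. In libraries 1 and 2 Gpx1 stood at 135 and 139 and Prdx5 at 46.3 and 46.8, below all other NP libraries of either treatment. With all libraries the fold changes of MDL-800 against vehicle were 0.43 for Gpx1 (95% interval -0.09 to 0.94, adjusted p = 0.45) and 0.23 for Prdx5 (-0.13 to 0.58, adjusted p = 0.569). Without that pair they were 0.03 and -0.03, and after GC correction with all libraries 0.23 and 0.06. The longest transcript has 57.2% GC for Gpx1, 56.4% for Prdx5, 60.2% for Gpx4, 56.0% for Gpx3, 42.3% for Prdx1 and 42.2% for Sod2. In libraries 1 and 2 Gpx3 stood at 217 and 180, where the other NP vehicle libraries had 140 to 260. Gpx4 stood at 289 and 359 in that pair, against 342 to 386.

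**Figure D4:**
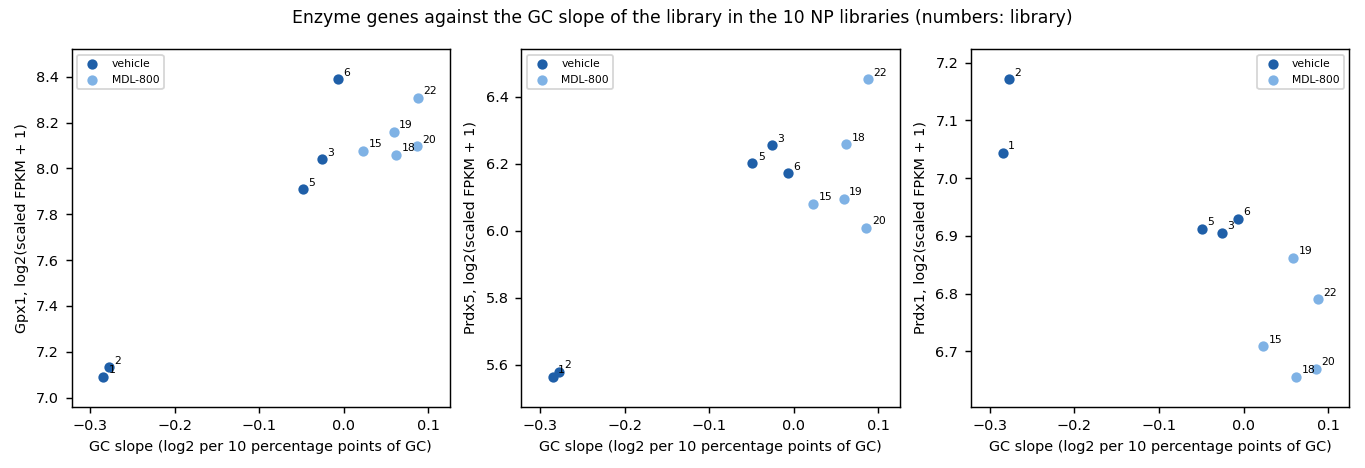
Level of Gpx1, Prdx5 and Prdx1 (log2 of scaled FPKM + 1) against the GC slope of the library (log2 per 10 percentage points of GC) in the 10 NP libraries, coloured by treatment and labelled by library number. Vehicle libraries 1 and 2, at slopes of -0.29 and -0.28, stand apart from the other 8, low in Gpx1 and Prdx5 and high in Prdx1.

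Because that pair stands apart, relations with the GC slope in NP are given over the other 8 libraries alone. Pearson's r was 0.36 for Gpx1, 0.03 for Prdx5 and -0.71 for Prdx1, as a description. For the other members r was 0.76 (Gpx3), 0.74 (Cat), -0.60 (Sod2), 0.54 (Sod1), 0.31 (Sod3), -0.21 (Prdx6) and 0.14 (Gpx4). Between Gpx1 and Prdx5 it was 0.25 over those 8 libraries. In these libraries the slope still parts the treatments, with every MDL-800 library above every vehicle library. For every member, Gpx3, Cat and Prdx1 included, slope and treatment cannot be told apart here.

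The other members in NP had intervals that include 0. The fold changes of MDL-800 against vehicle were 0.13 for Sod1 (95% interval -0.06 to 0.33), -0.15 for Sod2 (-0.31 to 0.01), 0.38 for Sod3 (-0.34 to 1.11), 0.17 for Cat (-0.02 to 0.36), 0.12 for Gpx4 (-0.09 to 0.34) and -0.12 for Prdx6 (-0.42 to 0.17). For Cat, 4 of 5 MDL-800 libraries lay above the highest vehicle library. After GC correction the sign of Gpx4 turned, to -0.21.

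In AF no member came near the threshold (all adjusted p = 1 in limma). The SE of the fold change was larger than in NP for all members except Prdx6 (0.094 in AF against 0.134 in NP). The largest fold change was that of Cat, 0.31 (95% interval -0.07 to 0.70), where 4 of 5 MDL-800 libraries lay above the highest vehicle library and library 27 lay below the lowest. The lowest was that of Prdx1, -0.23 (-0.57 to 0.11), with 4 of 5 MDL-800 libraries below the lowest vehicle library. For Gpx1 the interval ran from -0.64 to 1.09, and for Sod3 from -0.75 to 0.77, which leaves room for changes of these sizes. Sod1 (0.07), Sod2 (-0.13), Gpx3 (0.07), Gpx4 (-0.05), Prdx5 (0.16) and Prdx6 (-0.08) lay between.

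The difference of the treatment effect between NP and AF was tested in a fit of all 4 groups. It was called for 0 of 10 members with limma, against 0% of all genes, and at an unadjusted p under 0.05 for 0 of 10, against 3.73% of all genes. The highest value was that of Gpx3, 0.51 (95% interval -0.08 to 1.10), and the lowest that of Cat, -0.15 (-0.56 to 0.27). The tissue and treatment comparisons share libraries, and so their values are set side by side only. For Gpx3 they were -1.87 (NP against AF, vehicle), -1.36 (NP against AF, MDL-800), 0.57 (treatment in NP) and 0.07 (treatment in AF).

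Several enzymes varied with marker lists of cell types from library to library within AF. Levels of the 10 members on the log2 scale were related to 11 marker lists and to the GC slope over the 10 libraries of each tissue, both treatments together. Of these 240 relations, 5 had an adjusted p under 0.05 for Pearson's r by a permutation test: 4 in AF and 1 in NP (Prdx1 with the GC slope). The slope parts the treatments in NP, so the relation found there cannot be told apart from treatment. Libraries of 1 tissue share their dissection and treatment groups, and the relations are descriptions of these libraries.

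Gpx1 followed the red blood cell markers in AF. Pearson's r was 0.93 and Spearman's rho 0.96 over 10 libraries (permutation p = 2e-05 and 6e-05, adjusted 0.0048 and 0.0096). Without the 2 libraries farthest from the median of the marker level, numbers 27 and 30 of MDL-800, r was 0.86. Library 30, with the highest Gpx1 at 1261, also had the highest level of these markers, a mean of 8.45 on the log2 scale. Libraries 12 and 27, with the lowest Gpx1, had the lowest marker levels, at 6.03 and 5.97, and they are also the AF libraries of lowest GC slope. Without these 2 libraries, an alternative chosen after seeing the data, r was 0.94. Other lists moved with Gpx1 too. Its r was 0.81 with neutrophil markers, 0.74 with B and plasma cell markers, -0.74 with skeletal muscle markers and 0.81 with the GC slope (rho 0.73, 0.75, -0.67 and 0.55), none of them with an adjusted p under 0.05 (permutation test, adjusted p of r from 0.0774 to 0.165). With the GC slope r was 0.02 without libraries 12 and 27. In NP the same relation had an r of 0.26 and a rho of 0.24 (permutation p = 0.477 and 0.516, adjusted 0.796 and 0.796), and -0.15 without the 2 farthest libraries.

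Prdx5 followed the neutrophil markers in AF, with an r of 0.93 and a rho of 0.96 (n = 10, permutation p = 7e-05 and 8e-05, adjusted 0.0084 and 0.0096). Without libraries 27 and 30 r was 0.86, and without libraries 12 and 27 it was 0.89. Prdx5 also moved with red blood cell markers (r = 0.83, rho = 0.72), skeletal muscle markers (r = -0.83, rho = -0.79) and the GC slope (r = 0.73, rho = 0.50, and an r of 0.0062 without libraries 12 and 27), with adjusted permutation p values of r between 0.0641 and 0.165. Sod2 went the other way: its r with the neutrophil markers was -0.89 and its rho -0.94 (n = 10, permutation p = 0.00065 and 0.00025, adjusted 0.0451 and 0.02), and -0.84 without libraries 27 and 30 or 12 and 27. With skeletal muscle markers the r of Sod2 was 0.79 and its rho 0.76 (adjusted permutation p = 0.118 and 0.312). With the GC slope they were -0.82 and -0.66 (adjusted permutation p = 0.0774 and 0.444), and r was -0.31 without libraries 12 and 27. Library 30 had the highest neutrophil markers (11.0), the highest Prdx5 (270.1) and the lowest Sod2 (17.3) of the AF libraries. In NP r of Prdx5 with neutrophil markers was 0.35 and rho 0.44 (n = 10, permutation p = 0.329 and 0.205, adjusted 0.712 and 0.594), and 0.04 without the 2 farthest libraries.

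Gpx3 followed the markers of the AF itself, a list with collagen I genes, Dcn, Tnmd and Thbs4. In AF r was 0.87 and rho 0.83 (n = 10, permutation p = 0.00094 and 0.0047, adjusted 0.0451 and 0.188), and 0.77 without libraries 9 and 30. For Sod3 r was 0.89 and rho 0.79 (n = 10, permutation p = 0.00137 and 0.00891, adjusted 0.0548 and 0.267), which missed the threshold, and without libraries 9 and 30 it fell to 0.56. Without libraries 12 and 27 r was 0.87 for both. With NP markers the r in AF was -0.81 for Gpx3 and -0.75 for Sod3 (rho -0.68 and -0.73). The adjusted permutation p of these r was 0.0774 and 0.151. AF vehicle library 9, with the lowest AF markers (6.55) and the highest NP markers of the AF libraries (7.68), had the lowest Gpx3 (415) and the lowest Sod3 (17.9). In NP r of Sod3 with AF markers was 0.76 and rho 0.85 (n = 10, permutation p = 0.0114 and 0.00264, adjusted 0.149 and 0.158). Without the 2 farthest libraries this r was 0.63. For Gpx3 in NP r was 0.26 and rho 0.16 (adjusted permutation p = 0.792 and 0.853). The part of these cell types in the tissue comparisons was not tested.

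**Figure D5:**
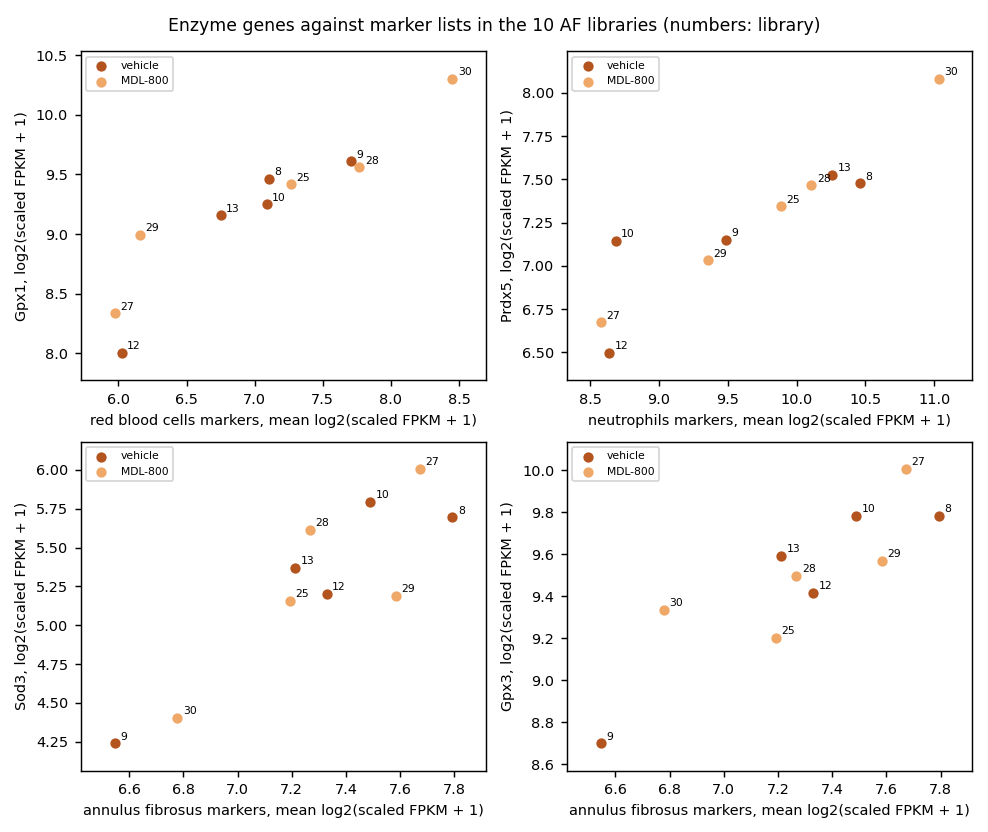
Level of Gpx1, Prdx5, Sod3 and Gpx3 (log2 of scaled FPKM + 1) against the mean level of a marker list on the same scale in the 10 AF libraries, coloured by treatment and labelled by library number. Gpx1 follows red blood cell markers (r = 0.93), Prdx5 follows neutrophil markers (r = 0.93), and Sod3 and Gpx3 are lowest in library 9, which has the lowest AF markers.

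Among the members themselves 90 pairs were related, 45 in each tissue, and 3 pairs had an adjusted p under 0.05 for r, all in AF. Sod2 and Prdx5 ran in opposite directions, with an r of -0.92 and a rho of -0.92 (n = 10, permutation p = 9e-05 and 0.00051, adjusted 0.0081 and 0.023), and -0.86 without the 2 farthest libraries. Sod3 and Gpx3, the secreted pair, ran together, with an r of 0.88 and a rho of 0.93 (n = 10, permutation p = 0.00057 and 0.00047, adjusted 0.0171 and 0.023), and 0.71 without the 2 farthest. Gpx1 and Prdx5, whose promoters are printed above, ran together with an r of 0.92 and a rho of 0.73 (n = 10, permutation p = 0.00047 and 0.0204, adjusted 0.0171 and 0.368), and 0.78 without the 2 farthest. Over the 8 libraries other than 12 and 27 the r of Gpx1 with Prdx5 was 0.81 and the rho 0.48. Neither of these promoters holds the element core. By rho, Sod2 with Gpx1 in NP (-0.88, adjusted permutation p = 0.0402) and Cat with Prdx1 in AF (-0.87, adjusted 0.0475) also passed. Their r was -0.66 and -0.73 (adjusted permutation p = 0.176 and 0.132).

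For the members other than Prdx5, the gene with the most similar pattern was taken from 10705 other genes with a mean of at least 5 scaled FPKM. The measure was Pearson's r of the deviations from the group means over 20 libraries, which leaves out the differences between the 4 groups, and it is a description of the highest of many values. Closest to Gpx1 was Zfpm1, which encodes the GATA1 cofactor FOG1 of red cell formation (r = 0.98). The 20 libraries include NP vehicle 1 and 2, AF vehicle 12 and AF MDL-800 27. These had the lowest GC slopes and the lowest Gpx1 of their groups. Across NP libraries r of Gpx1 with red blood cell markers was 0.26. The part of red cells or GC content in this likeness, or in that with Alad below, was not tested. Closest to Sod2 was Paip1 (0.95), to Sod3 Pid1 (0.92), to Cat Hist1h2ap (0.91), to Gpx3 Kcnma1 (0.84) and to Gpx4 Dgcr6 (0.90). Closest to Prdx1 was Mmadhc (0.89), to Prdx6 Fam32a (0.83) and to Sod1 the ribosomal protein gene Rpl24 (0.79). With the differences between groups left in, Gpx1 was closest to Alad, an enzyme of haem synthesis (0.98), Sod3 again to Pid1 (0.99) and Gpx3 to Bcl6 (0.97). Over the same 20 libraries Cat was closest to Pabpc4 (0.95), Gpx4 to Dgcr6 (0.95), Sod2 to Vps4a (0.93), Prdx1 to Esd (0.92), Prdx6 to Fam32a (0.83) and Sod1 to Pithd1 (0.70).

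The genes that feed, assist or load these enzymes were read from 7 lists with 71 genes, of which 67 were tested. Between tissues of vehicle-treated mice 31 of the 67 were lower in NP (33.9% of all genes were), 11 were higher (21.8% of all genes) and 25 were not called, and the median fold change was -0.26 against -0.08 over all genes. In MDL-800-treated mice 32 were lower (37.2% of all genes), 17 higher (25.6% of all genes) and 18 not called. The counts of each list below are to be read against the same shares. MDL-800 against vehicle gave 0 calls among the 67 in NP and 0 in AF with limma.

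The sources of superoxide and hydrogen peroxide had the lowest median of the 7 lists. Of 11 tested genes of that list, 9 were lower in NP and 2 higher, in both treatments, with a median fold change of -2.17 in vehicle-treated mice. The phagocyte NADPH oxidase led the falls: its catalytic subunit Cybb had a mean of 6.77 ± 6.72 scaled FPKM in NP vehicle and 88.9 in AF vehicle, a log2 fold change of -3.86 (SE 0.53, adjusted p = 0.000145). The cytosolic subunits Ncf1 (-3.75) and Ncf4 (-3.64) were lower too. Under MDL-800 the values were -3.76 for Cybb, -3.90 for Ncf1 and -3.76 for Ncf4. These are genes of neutrophils and macrophages, whose own markers were lower in NP as well, and summed neutrophil markers ranged from 200 to 3090 scaled FPKM in NP vehicle and from 7221 to 19094 in AF vehicle.

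Selenop, the plasma selenium carrier, stood lowest in the list of selenium supply, with a log2 fold change of -3.11 (SE 0.20, adjusted p = 3.98e-06) in vehicle-treated and -3.01 in MDL-800-treated mice. Of 8 tested genes of selenocysteine insertion and selenium supply, 3 were lower and none higher in NP of vehicle-treated mice, and 3 lower and 2 higher under MDL-800.

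Supply of glutathione and NADPH was split. Of 13 tested genes 7 were lower and 3 higher in NP in each treatment. The higher ones included Me1, the cytosolic malic enzyme that yields NADPH, with a fold change of 1.59 in vehicle-treated and 1.69 in MDL-800-treated mice, and Idh2, the mitochondrial isocitrate dehydrogenase, with 0.83 and 1.01. Ggct, which breaks down gamma-glutamyl peptides, was higher as well, with 0.71 and 1.36. Ggct had the second smallest p among these genes for MDL-800 in NP, with a fold change of 0.50 (adjusted p = 0.139), and the smallest for the difference between tissues, 0.65 (adjusted p = 0.9997).

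Of 11 thioredoxin and glutaredoxin genes, 6 were lower in NP, 1 was higher and 4 were not called in each treatment, where 55.7% and 62.8% of all genes were called. The higher one was the thioredoxin inhibitor Txnip, by 0.59 in vehicle-treated and 0.70 in MDL-800-treated mice. Other glutathione peroxidases and peroxiredoxins were lower for 3 of 5 with 1 higher in vehicle-treated mice, and for 4 of 5 with 1 higher under MDL-800. Of 5 tested genes of copper and manganese delivery, 2 were lower and 1 higher in vehicle-treated mice, the higher one being the copper pump Atp7a (0.61), and 1 was lower and 1 higher under MDL-800. Peroxisome import, which carries catalase to its place, showed 3 higher and 1 lower of 14 in vehicle-treated and 7 higher and 2 lower in MDL-800-treated mice, against 55.7% and 62.8% of all genes called in either direction. The import gene Pex6 had the smallest p of the 67 for MDL-800 in NP, with 8.58 ± 1.59 scaled FPKM against 4.74 ± 0.989 and a log2 fold change of 0.74 (adjusted p = 0.0743), which did not pass. In AF the smallest p values were those of Nnt (-0.47) and Glrx2 (-0.19), both with an adjusted p of 1, and for the difference between tissues Pex7 came after Ggct, at -0.41.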

How the data were processed

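The authors deposited FPKM values for 51789 genes in 20 libraries (stranded total RNA, ribosomal RNA removed, 50 ng of RNA and 14 PCR cycles, per the labels' protocols). The submitters' processing notes name STAR 2.7.11b and mm10. The counting program, annotation and strand setting are not given in the sources used here. All 20 columns were matched to samples by name, 5 per group.

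From these values, FPKM was divided by a median-ratio factor for each library (factors 0.933 to 1.06), using 11308 genes that reached 1 FPKM in every library. The tests took log2(scaled FPKM + 1), which understates changes of low genes, of the 16383 genes that reached 1 FPKM in at least 5 libraries. Groups were compared pairwise in limma 3.58.1 (R 4.3.3, eBayes with trend, two-sided, Benjamini-Hochberg), and the difference of treatment effects in a fit of all 4 groups. Relations used Python 3.11.15, scipy 1.17.1 and 100000 permutations. The scripts were tested on simulated data with 200 changed genes. At a log2 change of 0.5, limma found 33% of them for treatment in NP and 0% in AF. For the difference of treatment effects it found 4%. At a change of 1 these shares were 83.5%, 56.5% and 69%. Coordinates, GC content and near copies (blastn 2.17.0) come from GENCODE M21, with 51596 of the identifiers matched, and promoters from RefSeq.

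The enzymes and lists were chosen with earlier results of these data known. Every enzyme is named in each comparison. Pathway genes are named if they are among the 5 highest or 5 lowest called fold changes with a mean of at least 5 scaled FPKM in the higher group, or, with no call, have the 2 smallest p values. Some genes that this rule or the search for similar patterns names are not reported here. Alternatives covered pseudocounts, filters, scalings, GC correction, other fits and leaving out libraries. Without counts, no counting intervals can be given.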

Additional observations from a re-analysis of the deposited data

Results flagged for a closer look

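Each of the 10 enzymes was checked in each of the 4 groups for a library far from the other 4, by the gap to the nearest library over the range of the group. Of these 40 sets 2 stood out, and chance gives about 1 in 20. Sod3 in NP vehicle library 6 was 2.70 scaled FPKM, against 0.759 to 1.31 in the other NP vehicle libraries. That library also had the highest AF, red blood cell, neutrophil, macrophage, B and plasma cell, bone and endothelium markers of its group. Prdx1 in AF MDL-800 library 27 was 178 scaled FPKM, against 121 to 137 in the other AF MDL-800 libraries. That library had the lowest GC slope of its group.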

How the results depend on the processing

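The count of enzymes called kept within 1.5 times its value under every alternative run for both tissue comparisons (5 to 8 in each), for treatment in AF and for the difference of treatment effects. For treatment in NP it became 1 without NP vehicle library 6, and leaving out single libraries gave 0 to 1. Fold changes of called enzymes kept their sign in all settings run. Those that turned sign were not called in the fit reported above. Sod1 (NP against AF, vehicle) turned to 0.0066 with quantile normalization, 0.15 with upper-quartile scaling, 0.0038 on protein-coding genes, 0.29 with GC correction and 0.0115 with array weights, and ranged from -0.10 to 0.0227 when single libraries were left out. Under MDL-800 it was -0.0654 on deposited FPKM and -0.0084 with quantile normalization, and -0.0205 to 0.0675 without single libraries. It was called, at 0.42, with GC correction. Prdx6 turned to 0.0623 and 0.0201 with upper-quartile scaling and to 0.23 and 0.25 with GC correction. In NP treatment Gpx4 turned to -0.21 with GC correction and Prdx5 to -0.03 without vehicle libraries 1 and 2, an alternative chosen after seeing the data. In AF treatment Sod3 was -0.0052 with quantile normalization, -0.0159 on protein-coding genes, -0.0032 with GC correction, -0.0662 with array weights and -0.18 without AF libraries 12 and 27. Gpx3 was -0.0129, -0.0207 and -0.0633 with quantile normalization, array weights and without those libraries. Leaving out single AF libraries gave -0.24 to 0.23 for Sod3, -0.12 to 0.15 for Gpx3, -0.0472 to 0.47 for Gpx1, -0.14 to 0.0571 for Gpx4 and -0.0309 to 0.32 for Prdx5. Over all genes the count for treatment in NP (41) ranged from 2 without NP vehicle library 3 or NP MDL-800 library 22 to 189 without NP vehicle library 6, and was 230 when every library had to reach 1 FPKM, where Sod3 was not tested, 7 with no filter, 4 with all 4 groups in the fit, 12 on protein-coding genes, 18 on deposited FPKM, 18 without a variance trend, and 11 without vehicle libraries 1 and 2.

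Library titles share no replicate numbers between groups, but column headers hold a further number that recurs between tissues in 8 pairs. Deviations from group means correlated at -0.18 to 0.29 in these pairs. Nothing in the labels says whether the number marks a mouse, and the libraries were not treated as paired. With it as a replicate block 6 enzymes were called in vehicle-treated mice (Gpx4 in place of Prdx1), 5 under MDL-800 (without Gpx1 and Prdx1) and 0 for the difference of treatment effects. Of all 16383 genes the same fit called 3377 higher and 5406 lower in vehicle-treated mice, and 2990 and 4867 under MDL-800. Under MDL-800 the header number recurred only for 36, 37 and 39. MDL-800 libraries without such a partner did not inform the tissue difference in that fit. Fewer libraries and pairing therefore cannot be told apart in the calls lost there. The table holds no read counts, so the counting error of low values such as Sod3 in NP was not estimated.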
